A study of Rattus norvegicus with 12 samples.

Results

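The bone morphogenetic protein (BMP) pathway was followed in rat lung through 10 genes: the ligands Bmp2, Bmp4 and Bmp6, the receptors Bmpr2 and Bmpr1a, the ID targets Id1, Id2 and Id3, and the inhibitory SMADs Smad6 and Smad7. They were taken by gene symbol from the annotation of the array, which gave 21 of the 31042 probe sets and 10 of the 14217 genes measured. All RNA was lung RNA of male, wild-type Sprague Dawley rats of 250 to 350 g, and 3 arrays were hybridised for each of 4 groups. In the BD/SEW group, brain death was followed after 15 min by an intravenous dose of 0.1 mg/kg SEW-2871, an agonist of the sphingosine 1-phosphate receptor S1P1. The BD group had brain death alone, brought about by inflating a balloon catheter between skull and dura, and the SEW group had the same dose of the agonist without brain death. The sham group, also labelled control, had neither. The labels give no age, no time of lung collection and no statement on whether SEW animals had the sham operation. They number the samples 1 to 3 within a group without saying that each is a separate animal. Each p-value below sets a difference of means against the spread of samples within the 4 groups, moderated over all genes. That spread may be only technical.

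BMPs are secreted ligands that bring type I receptor kinases such as the BMPR1A protein together with type II receptor kinases such as BMPR2. The activated type I receptor phosphorylates SMAD1, SMAD5 and SMAD9, which enter the nucleus with SMAD4 and switch on genes that include the ID family, inhibitors of basic helix-loop-helix transcription factors. SMAD6 and SMAD7 are themselves induced by the pathway and dampen it at the receptor. In the lung the pathway is best known from vascular endothelium, where inherited loss of BMPR2 causes pulmonary arterial hypertension.

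The 3 ID genes are the textbook readout of this pathway, and their promoter sequences are shown because the genes did not move together in every comparison below. Each line gives 200 bases, running from 250 to 51 bases before the start that the RefSeq promoter table uses (rat assembly GRCr8), on the strand of the gene, 5′ to 3′. The annotated span of Id1 and of Id3 begins a little before that start, so their windows run from 211 to 12 and from 212 to 13 bases before the span. Capitals mark the letters CACCC or their reverse complement GGGTG, the core that Krüppel-like factors bind. The windows lie at chr3:161671314-161671513 on the plus strand for Id1, chr6:47471046-47471245 on the minus strand for Id2 and chr5:153656041-153656240 on the plus strand for Id3. None of them overlaps the annotated span of its gene.
Id1: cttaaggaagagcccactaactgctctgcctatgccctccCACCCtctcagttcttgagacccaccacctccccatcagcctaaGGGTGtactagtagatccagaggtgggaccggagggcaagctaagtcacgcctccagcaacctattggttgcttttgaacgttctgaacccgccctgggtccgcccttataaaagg
Id2: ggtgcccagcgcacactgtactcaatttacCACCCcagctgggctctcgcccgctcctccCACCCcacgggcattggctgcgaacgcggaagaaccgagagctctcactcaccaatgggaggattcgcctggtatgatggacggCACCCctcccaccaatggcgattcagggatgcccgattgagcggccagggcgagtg
Id3: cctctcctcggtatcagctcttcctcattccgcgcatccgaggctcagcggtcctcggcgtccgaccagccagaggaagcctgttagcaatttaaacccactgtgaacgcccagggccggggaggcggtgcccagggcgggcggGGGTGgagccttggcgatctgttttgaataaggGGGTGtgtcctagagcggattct

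The letters CACCC, searched on both strands, occurred 2 times in the Id1 window, 3 times in the Id2 window and 2 times in the Id3 window. They occur in 41.7% of the 33469 promoter windows of the same length, so a match describes these letters and no more. GGCGCC, the GC-rich box that SMAD1 and SMAD5 bind, and TGACG, a cyclic AMP response half-site, were in none of the 3 windows, and none of the 3 motifs contains another. Over all windows these were present in 6.56% and 13.5%. Of the 8 members with a window, 1 had GGCGCC, namely Smad7, with its match starting 96 bases before the gene start.

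The lung label was checked with 8 markers of alveolar type 2 cells, whose mean lay between 12.92 and 13.46 log2 units in all 12 arrays. Genes of other tissues were present too. The mean of 19 cardiac muscle markers ran from 6.22 to 8.30 in BD/SEW, was 6.31, 11.60 and 7.34 in BD replicates 1, 2 and 3, ran from 6.01 to 7.68 in SEW and from 9.74 to 10.64 in sham. The mean of 11 adipose markers ran from 6.40 to 7.16 in BD/SEW, was 6.24, 9.06 and 6.46 in BD, ran from 6.55 to 7.01 in SEW and from 8.58 to 9.56 in sham. All 3 sham arrays and BD replicate 2 thus stood above the other 8 arrays in both lists, whereas BD/SEW and SEW overlapped in both. The mean of 7 heat shock genes was 13.04 in SEW replicate 2 and 10.92 to 11.33 in all 11 remaining arrays. limma's array weights were lowest, at 0.247 and 0.318, for sham replicate 3 and SEW replicate 2. The mean of 12 endothelial markers ran from 11.48 to 11.57 in BD/SEW, 11.44 to 11.71 in BD, 11.67 to 11.78 in SEW and 11.31 to 11.54 in sham. SEW and sham did not overlap in it, nor did BD/SEW and SEW. Of these 12 genes, 3 rose in SEW against sham and 2 fell in BD/SEW against SEW. The mean of 8 neutrophil markers ran from 10.82 to 11.21 in BD/SEW, 10.10 to 10.55 in BD, 8.89 to 10.32 in SEW and 9.52 to 10.46 in sham, and 3 of the 8 rose in BD/SEW against SEW. The mean of 6 airway epithelium markers ran from 8.97 to 9.42 in BD/SEW, 9.14 to 10.66 in BD, 8.61 to 9.87 in SEW and 10.67 to 10.89 in sham. Sham lay above every other array in it, and 2 of the 6 fell in SEW against sham and 2 in BD/SEW against sham. What part these airway genes have in the member differences from sham was not tested. In these bulk samples, fewer cells of a type and less RNA per cell cannot be told apart.

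**Figure D1:**
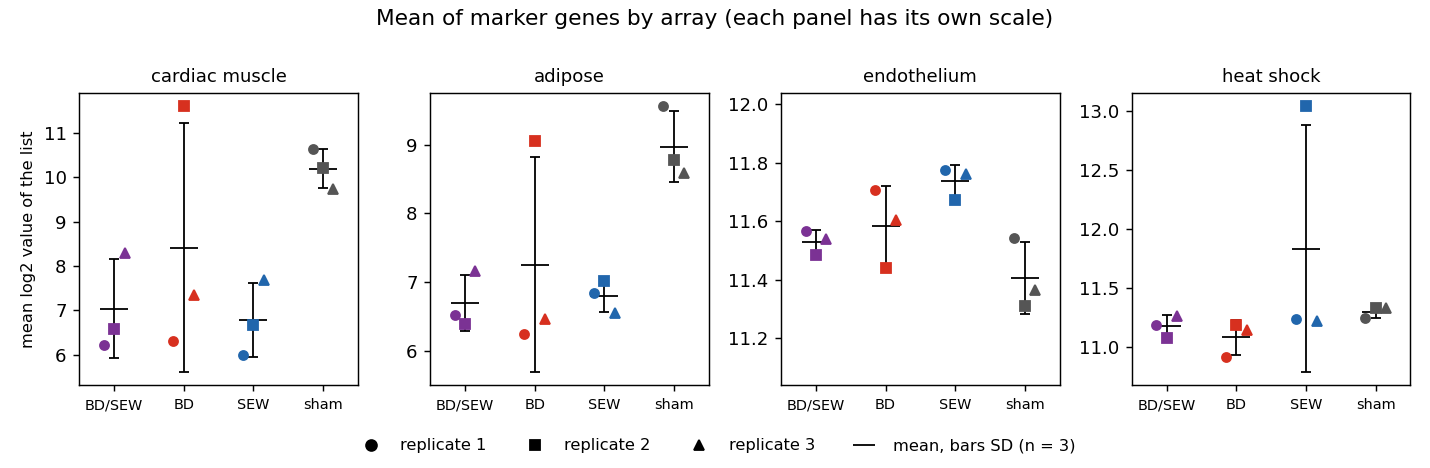
Mean log2 value of 4 marker lists (vertical axes, 1 scale per panel) in each of the 12 arrays, by group from BD/SEW to sham; horizontal lines are means and bars the SD (n = 3). The sham arrays and BD replicate 2 stand highest in cardiac and adipose markers, and SEW replicate 2 stands alone in heat shock genes at 13.04.

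Bmp6 rose 1.95-fold in lungs with brain death against sham, with or without the agonist, and Id1 fell to 0.554 of the sham level with the agonist and to 0.570 without it. Smad6 and Id3 rose 2.51-fold and 3.0-fold in lungs given the agonist alone. The Smad6 arrays of lungs with brain death and the agonist lay within the range of sham. The other 6 members, Bmp2, Bmp4, Bmpr2, Bmpr1a, Id2 and Smad7, passed the test in no comparison. The values are log2 probe set values, a gene is read from its probe set with the highest mean, and a difference passed at a limma p under 0.05 after Benjamini-Hochberg adjustment over all 14217 genes.

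In BD against sham, 1 member rose and 1 fell, where 0.211% of all genes rose and 0.38% fell. In SEW against sham, 2 members rose and 0 fell, where 3.4% rose and 2.43% fell. Against SEW, BD/SEW had 1 member that rose and 2 that fell, where 4.75% rose and 5.04% fell. In BD/SEW against sham, 1 rose and 1 fell, where 1.7% rose and 1.17% fell. No member passed in BD/SEW against BD, where 0.0141% of genes passed in either direction, nor in the interaction, where 0.95% did. At an unadjusted limma p under 0.05 there was 1 member in BD/SEW against BD, beside 5.44% of all genes, and there were 6 in the interaction, beside 12.5%. BD, SEW and BD/SEW were set against the same sham arrays, whereas BD against sham and BD/SEW against SEW share no array. All of these tests used 1 estimate of spread per gene from all 12 arrays, so their p-values are not independent.

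The arrays did not overlap between the groups in 5 members in BD against sham (15.7% of all genes), and SEW against sham had 5 such members (27.1%). There were 2 between BD/SEW and sham (25.9%), 7 between BD/SEW and SEW (31.8%) and 1 between BD/SEW and BD (12.4%). The median log2 difference over the 10 members was 0.29 in BD against sham and 0.30 in SEW against sham, beside 0.003 and 0.017 over all genes. It was -0.33 in BD/SEW against SEW, beside -0.007 over all genes. In BD/SEW against BD it was -0.08, beside 0.007, and in BD/SEW against sham 0.13, beside 0.01. The members were chosen with earlier results of these data known, so these counts and medians are a description and no test.

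**Figure D2:**
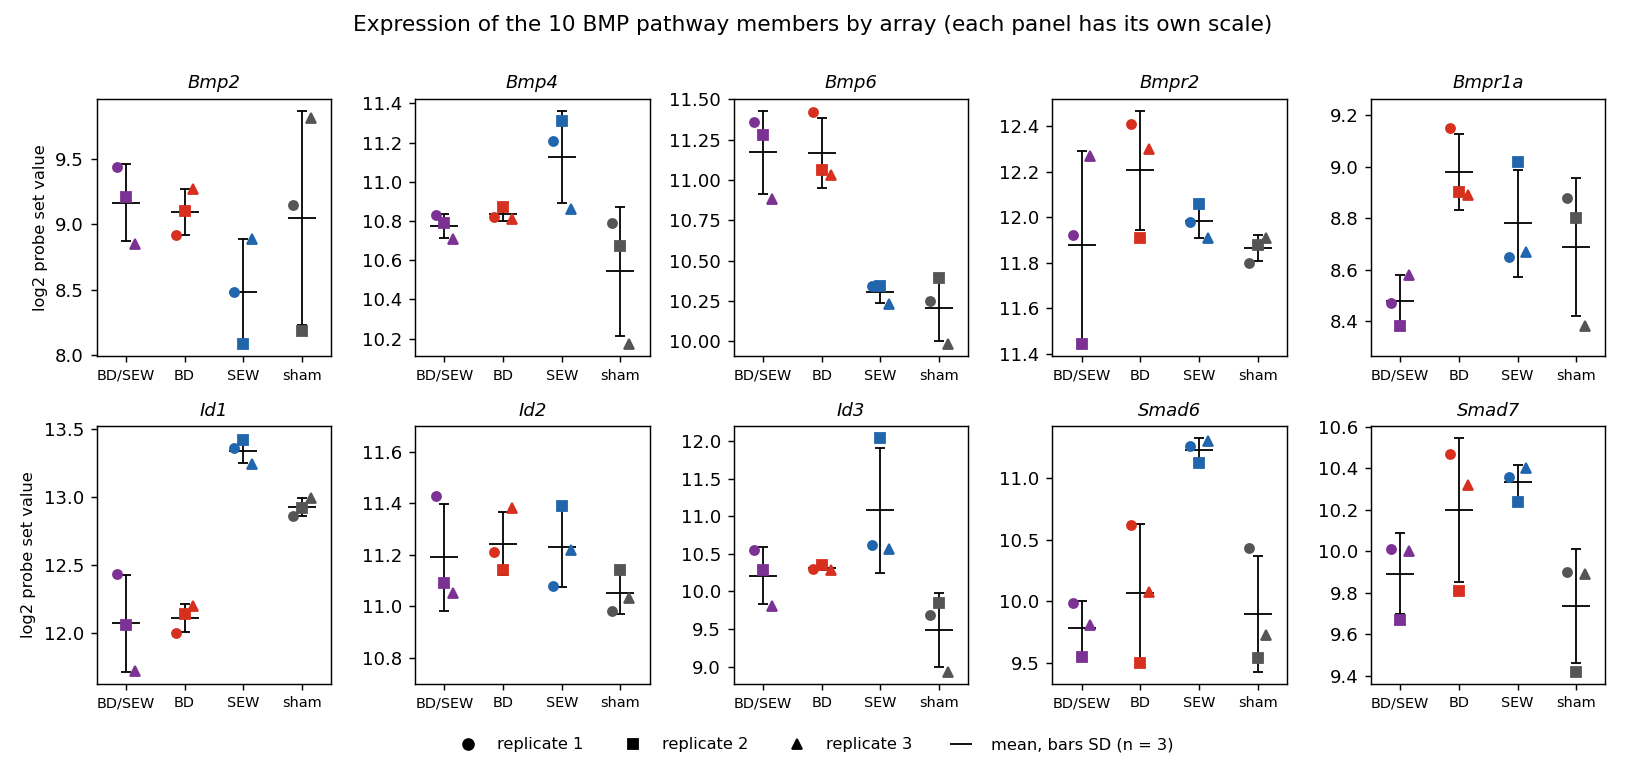
Log2 probe set value (vertical axes, 1 scale per panel) of the 10 members in each array, by group from BD/SEW to sham; horizontal lines are means and bars the SD (n = 3). Bmp6 separates the 6 brain-death arrays from the 6 others upwards and Id1 separates them downwards, while Smad6 stands apart only in the SEW arrays.

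Bmp6, a ligand that endothelial cells of several organs secrete and that in the liver sets hepcidin production, followed brain death. It read 11.36, 11.28 and 10.88 log2 units in the BD/SEW arrays and 11.42, 11.06 and 11.03 in the BD arrays. The SEW arrays read 10.34, 10.34 and 10.23, and the sham arrays 10.25, 10.39 and 9.98. The lowest of the 6 brain-death arrays lay above the highest of the 6 arrays without brain death.

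The rise of Bmp6 in BD against sham was 0.96 ± 0.15 on the log2 scale (SE, n = 3 per group; limma adjusted p = 0.022), or 1.95-fold. Between arrays that both had the agonist, BD/SEW against SEW, it was 0.87 ± 0.15 (adjusted p = 0.0041), or 1.83-fold. Against sham, BD/SEW was higher by 0.97 ± 0.15 (adjusted p = 0.0083). BD/SEW and BD differed by 0.00, with a 95% interval from -0.33 to 0.34, and SEW and sham by 0.10, with an interval from -0.24 to 0.43.

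The cardiac and adipose marker means moved with the comparisons against sham, and with the cardiac mean as a covariate the BD difference in Bmp6 was 0.85 (limma adjusted p = 0.092). Over all genes, BD against sham went from 30 higher and 54 lower calls to 5 and 23 (adipose covariate 3 and 1). SEW against sham went from 484 and 346 to 0 and 24 (adipose 0 and 9). BD/SEW against sham went from 242 and 166 to 6 and 6 (adipose 2 and 0). A call lost against sham with a covariate is thus not read as a result about a member. The Bmp6 call in BD against sham was also lost without sham replicate 1, sham replicate 3 or BD replicate 1, and with only the BD and sham arrays in the fit (adjusted p = 0.087). In BD/SEW against SEW, where both marker means overlap, Bmp6 kept its call without each of the 6 compared arrays in turn and with either covariate. That holds for its brightest probe set, and the mean of its probe sets did not pass (adjusted p = 0.075). The cardiac means of these groups were 7.03 and 6.79 and the adipose means 6.69 and 6.80, so the covariates could change little there. The neutrophil and endothelial marker means did differ there, and their part in the result was not tested. In the comparison of BD/SEW with sham the call was lost without BD/SEW replicate 2, and it was 0.77 with the cardiac covariate (adjusted p = 0.22).

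Bmp4, the ligand that patterns the branching lung and is made by vascular and mesenchymal cells, had its highest mean in SEW. It read 10.83, 10.79 and 10.71 in BD/SEW, 10.82, 10.87 and 10.81 in BD, 11.21, 11.31 and 10.86 in SEW and 10.79, 10.67 and 10.17 in sham. SEW lay above sham in every array, by 0.58 ± 0.16 on the log2 scale (limma adjusted p = 0.051). That did not pass here, and it passed without sham replicate 1 and without SEW replicate 3. BD and sham did not overlap either, and differed by 0.29 ± 0.16 (adjusted p = 0.54).

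Bmp2, a ligand that inflammatory signals and blood flow can induce in endothelium, varied most within sham. It read 9.44, 9.21 and 8.85 in BD/SEW, 8.92, 9.10 and 9.27 in BD, 8.48, 8.08 and 8.89 in SEW and 9.15, 8.18 and 9.82 in sham. Its SD was 0.30 in BD/SEW, 0.18 in BD, 0.41 in SEW and 0.82 in sham. The largest of its differences was 0.68 ± 0.34 in BD/SEW against SEW (limma adjusted p = 0.26), and the groups overlapped in all 5 comparisons of 2 groups.

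Neither receptor passed in any comparison, though Bmpr1a did under 1 alternative given with its values. Bmpr2, the type II receptor, read 11.92, 11.44 and 12.27 in BD/SEW, 12.41, 11.91 and 12.30 in BD, 11.98, 12.06 and 11.91 in SEW and 11.80, 11.88 and 11.91 in sham. Its spread was larger in the 2 brain-death groups (SD 0.42 in BD/SEW and 0.26 in BD) than in SEW (0.08) and sham (0.06). In BD against sham the difference was 0.34 ± 0.18 (limma adjusted p = 0.54), with a 95% interval from -0.05 to 0.74.

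Bmpr1a, a type I receptor, read 8.47, 8.38 and 8.58 in BD/SEW and 9.15, 8.90 and 8.89 in BD. In SEW it read 8.65, 9.02 and 8.67, and in sham 8.88, 8.80 and 8.38. It was the 1 member whose BD/SEW and BD arrays did not overlap, and BD/SEW differed by -0.50 ± 0.15 on the log2 scale. That difference had an unadjusted p of 0.0069 and an adjusted p of 0.79 in limma, so it did not pass. Against sham, BD/SEW differed by -0.21 (adjusted p = 0.53), and with limma's array weights by -0.37 (adjusted p = 0.022), which passed.

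Id1, which keeps helix-loop-helix factors from binding DNA and is strongly expressed in lung endothelium, had the clearest pattern of the ID genes. It read 12.43, 12.06 and 11.72 in BD/SEW and 12.00, 12.14 and 12.20 in BD. The SEW arrays read 13.36, 13.42 and 13.24, and the sham arrays 12.86, 12.92 and 12.99. All 6 brain-death arrays lay below all 6 others, and the SEW arrays lay above the sham arrays without overlap.

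In BD, Id1 fell by 0.81 on the log2 scale against sham (SE 0.14, n = 3 per group; limma adjusted p = 0.037), to 0.570 of the sham level. In BD/SEW it fell by 1.27 against SEW (SE 0.14, adjusted p = 0.00037), to 0.415 of the SEW level. Against sham, BD/SEW differed by -0.85 ± 0.14 (adjusted p = 0.012). BD/SEW and BD differed by -0.04, with a 95% interval from -0.36 to 0.27.

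SEW against sham in Id1 was 0.42 ± 0.14 (limma adjusted p = 0.10), which did not pass. The Id1 call in BD against sham held in 1 of the 6 fits that left out a compared array, the one without BD replicate 2, and with the cardiac covariate it was -0.87 (adjusted p = 0.092). The call in BD/SEW against SEW held in all 6 such fits and with either covariate, whose means lay close in these groups. In that comparison the endothelial and neutrophil marker means did not overlap between the groups, and their part in the Id1 difference was not tested. Between BD/SEW and sham the call was lost without BD/SEW replicate 2, at -0.85 (adjusted p = 0.061), and with the cardiac covariate, at -0.96 (adjusted p = 0.11), or the adipose one, at -0.91 (adjusted p = 0.31). Without the change the difference was -0.85. The sham arrays stood above the BD/SEW arrays in both marker means, and the part of tissue content in this difference was not tested.

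Id3, a close relative of Id1 and a target of the same SMADs, had another order of groups. It read 10.55, 10.28 and 9.80 in BD/SEW, 10.30, 10.35 and 10.29 in BD, 10.62, 12.04 and 10.57 in SEW and 9.69, 9.85 and 8.93 in sham. SEW, BD and sham did not overlap with each other, and sham was lowest.

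In SEW against sham Id3 rose by 1.59 ± 0.36 on the log2 scale (limma adjusted p = 0.032), or 3.0-fold. The high value belongs to SEW replicate 2, the array with the high heat shock mean, and without it the difference was 1.11 (adjusted p = 0.046). With sham replicate 3, SEW replicate 2 and BD replicate 2 all left out it was 0.83 (adjusted p = 0.049). The call was lost without sham replicate 1 and without sham replicate 3. It was also lost with the cardiac covariate, at 1.5 (adjusted p = 0.31), with the adipose covariate, at 1.74 (adjusted p = 0.26), and with only the SEW and sham arrays in the fit (adjusted p = 0.13). In BD against sham the difference was 0.82 ± 0.36 (adjusted p = 0.43), opposite in sign to that of Id1. In BD/SEW against SEW it was -0.87 ± 0.36 (limma adjusted p = 0.17), of the same sign as that of Id1, and did not pass.

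Id2, the third ID gene measured, which is also an immune cell regulator, varied little. Its arrays lay between 11.05 and 11.43 in BD/SEW, 11.14 and 11.38 in BD, 11.08 and 11.39 in SEW and 10.98 and 11.14 in sham. The BD against sham difference was 0.19 ± 0.12 (limma adjusted p = 0.62), and BD/SEW differed from SEW by -0.04, with a 95% interval from -0.31 to 0.23. The groups overlapped in all 5 comparisons.

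Smad6, which blocks the BMP type I receptor and its SMADs, stood apart in the lungs given the agonist alone. It read 9.99, 9.55 and 9.81 in BD/SEW and 10.62, 9.50 and 10.08 in BD. The SEW arrays read 11.26, 11.12 and 11.30, and the sham arrays 10.43, 9.54 and 9.73. The 3 SEW arrays lay above all 9 others, among which BD/SEW, BD and sham overlapped.

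In SEW against sham Smad6 rose by 1.33 ± 0.27 on the log2 scale (limma adjusted p = 0.021), or 2.51-fold. In BD/SEW it fell by 1.44 against SEW (SE 0.27, adjusted p = 0.0062), to 0.368 of the SEW level. BD/SEW differed from sham by -0.12, with a 95% interval from -0.71 to 0.48, and BD from sham by 0.17, with an interval from -0.43 to 0.76.

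The call of Smad6 in SEW against sham was lost without sham replicate 2, sham replicate 3 or SEW replicate 3. With the cardiac mean as a covariate its value was 0.87 (adjusted p = 0.35), and with the adipose mean 0.91 (adjusted p = 0.35). The fall in BD/SEW against SEW kept its call without each compared array in turn and with either covariate, whose means lay close in these groups. The endothelial marker mean moved with Smad6 in both comparisons, and its part in them was not tested.

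Smad7, which inhibits both the BMP and the TGF-beta receptors, read 10.01, 9.67 and 10 in BD/SEW, 10.47, 9.81 and 10.32 in BD, 10.36, 10.24 and 10.40 in SEW and 9.90, 9.42 and 9.89 in sham. SEW lay above sham and above BD/SEW in every array. SEW against sham was 0.60 ± 0.18 (limma adjusted p = 0.074) and BD/SEW against SEW was -0.44 ± 0.18 (adjusted p = 0.16), so neither passed.

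**Figure D3:**
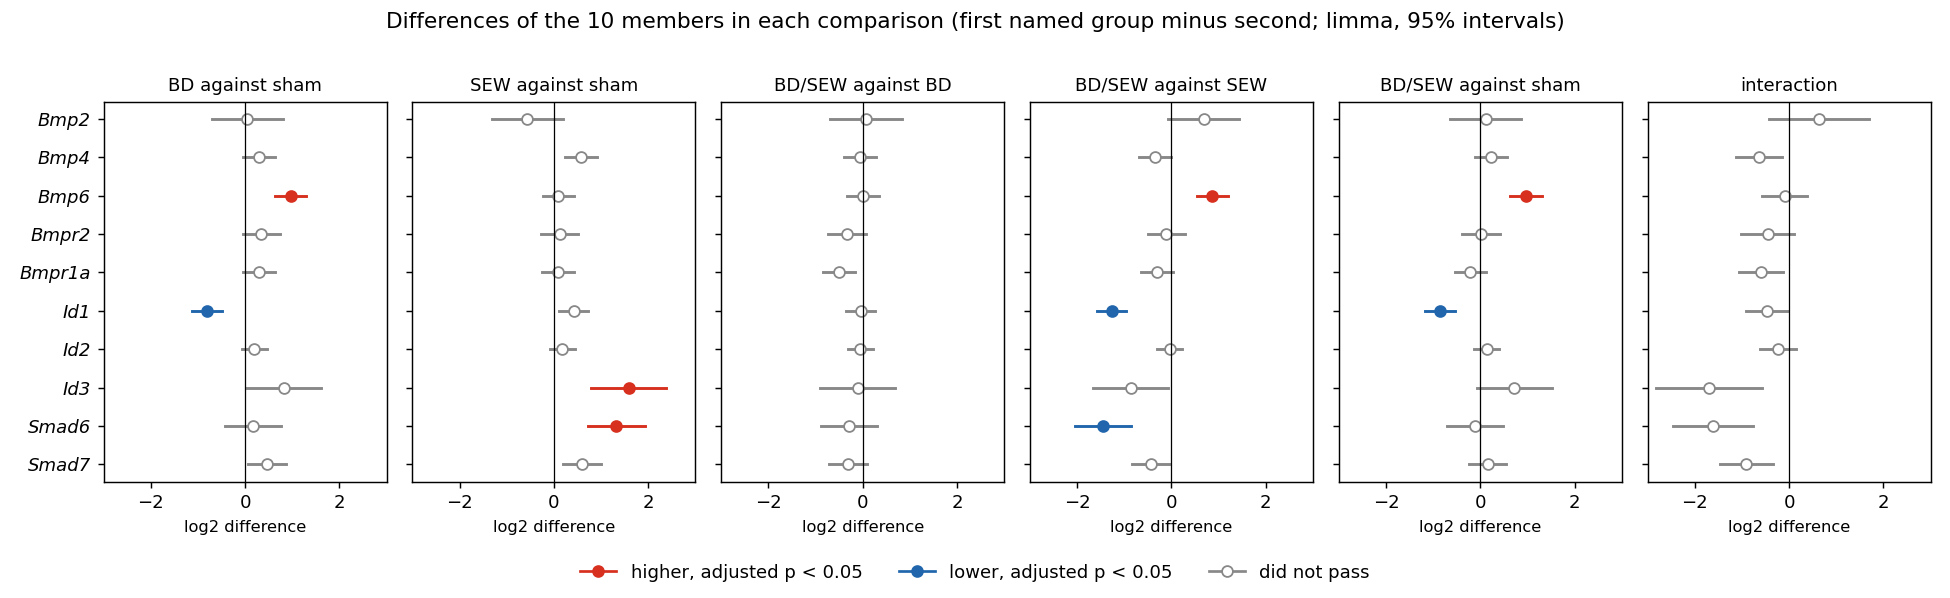
Log2 difference of each member (horizontal axes, log2 units, first named group minus second) in the 6 comparisons, with 95% intervals from limma; filled points passed at an adjusted p under 0.05. Bmp6 and Id1 pass in the 3 comparisons of a brain-death group with a group without it, Smad6 in SEW against sham and in BD/SEW against SEW, Id3 in SEW against sham, and no member passes in BD/SEW against BD or in the interaction.

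BD/SEW against BD asks whether the agonist, given after brain death, changed these genes. Bmp6 and Id1, the members that passed in BD against sham, stood at the same mean to within 0.05 log2 units in both groups, and the 95% intervals of that difference did not reach the sham mean. No member passed, and over all genes 2 did. The interaction asks whether the effect of brain death differed with and without the agonist, as BD/SEW minus SEW less BD minus sham. Its value was negative in 9 of the 10 members, with a median of -0.53 beside -0.02 over all genes, and no member passed. The share of all genes with a negative value was not counted. Among the pathway lists given below, it was positive in as few as 3 of 17 genes (antagonists and modulators). In the TGF-beta and activin arm it was positive in 10 of 16. The members were read from the same arrays and some of them moved together, so the 9 signs are not independent.

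The largest interaction values among the members were in Id3 and Smad6. For Smad6 the interaction was -1.61 ± 0.38 (limma adjusted p = 0.085), with a 95% interval from -2.45 to -0.77. For Id3 it was -1.69 ± 0.51 (adjusted p = 0.19), and for Smad7 -0.90 ± 0.26 (adjusted p = 0.16). Without BD replicate 2, the array with high cardiac markers, Smad6 and Smad7 passed, at -1.89 (adjusted p = 0.024) and -1.10 (adjusted p = 0.044). Without sham replicate 1, Smad6 passed at -1.88 (adjusted p = 0.043). For Bmp6 the interaction was -0.09, with a 95% interval from -0.57 to 0.38.

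Probe sets of the same gene did not always move together, which bears on how firmly a member can be read. Bmp6 has 4 probe sets, and in a fit with every probe set as a feature 1388920_at, the brightest, passed in BD against sham. The next, 1388201_at, differed by 1.10 ± 0.30 (adjusted p = 0.17), 1378827_at by 0.48 ± 0.14 (adjusted p = 0.22) and 1378427_at, with a mean of 6.40, by 0.05 ± 0.09 (adjusted p = 0.91). In BD/SEW against SEW only 1388920_at passed. There 1388201_at differed by 0.76 ± 0.30 (limma adjusted p = 0.17) and 1378427_at by 0.04 ± 0.09 (adjusted p = 0.88). Probe set 1378827_at, with a mean of 8.03, differed by 0.05 ± 0.14 (adjusted p = 0.90). The sign was shared in both comparisons. With the mean of all 4 probe sets, though, Bmp6 was at 0.65 (adjusted p = 0.072) in BD against sham and 0.43 (adjusted p = 0.075) in BD/SEW against SEW.

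For Smad6, 2 of 4 probe sets passed in both SEW comparisons. The second, 1375121_at, rose by 1.83 ± 0.40 in SEW against sham (adjusted p = 0.037) and fell by 1.61 in BD/SEW against SEW (SE 0.40, adjusted p = 0.032). The remaining pair, 1385928_at and 1377467_at, have means of 6.27 and 6.05, near the lower quartile of the arrays (5.56 to 5.66), and differed by 0.47 and 0.06 in SEW against sham.

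For Smad7 the dimmest of 3 probe sets passed where the brightest did not. The dimmest had a mean of 5.77, near the lower quartile of the arrays (5.56 to 5.66). Probe set 1368897_at read 5.70, 5.59 and 5.43 in BD/SEW, 5.95, 5.50 and 5.69 in BD, 6.24, 6.28 and 6.40 in SEW and 5.85, 5.49 and 5.15 in sham. It rose by 0.81 ± 0.16 in SEW against sham (limma adjusted p = 0.030) and fell by 0.73 in BD/SEW against SEW (SE 0.16, adjusted p = 0.020), in the same direction as the brightest probe set. The third, 1368898_at, was at -0.07 and 0.01 in the same comparisons. The probe sets of Bmp2, Bmpr2 and Id2, 2 each, passed in none of the 3 comparisons drawn, and Bmp4, Bmpr1a, Id1 and Id3 have 1 each.

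**Figure D4:**
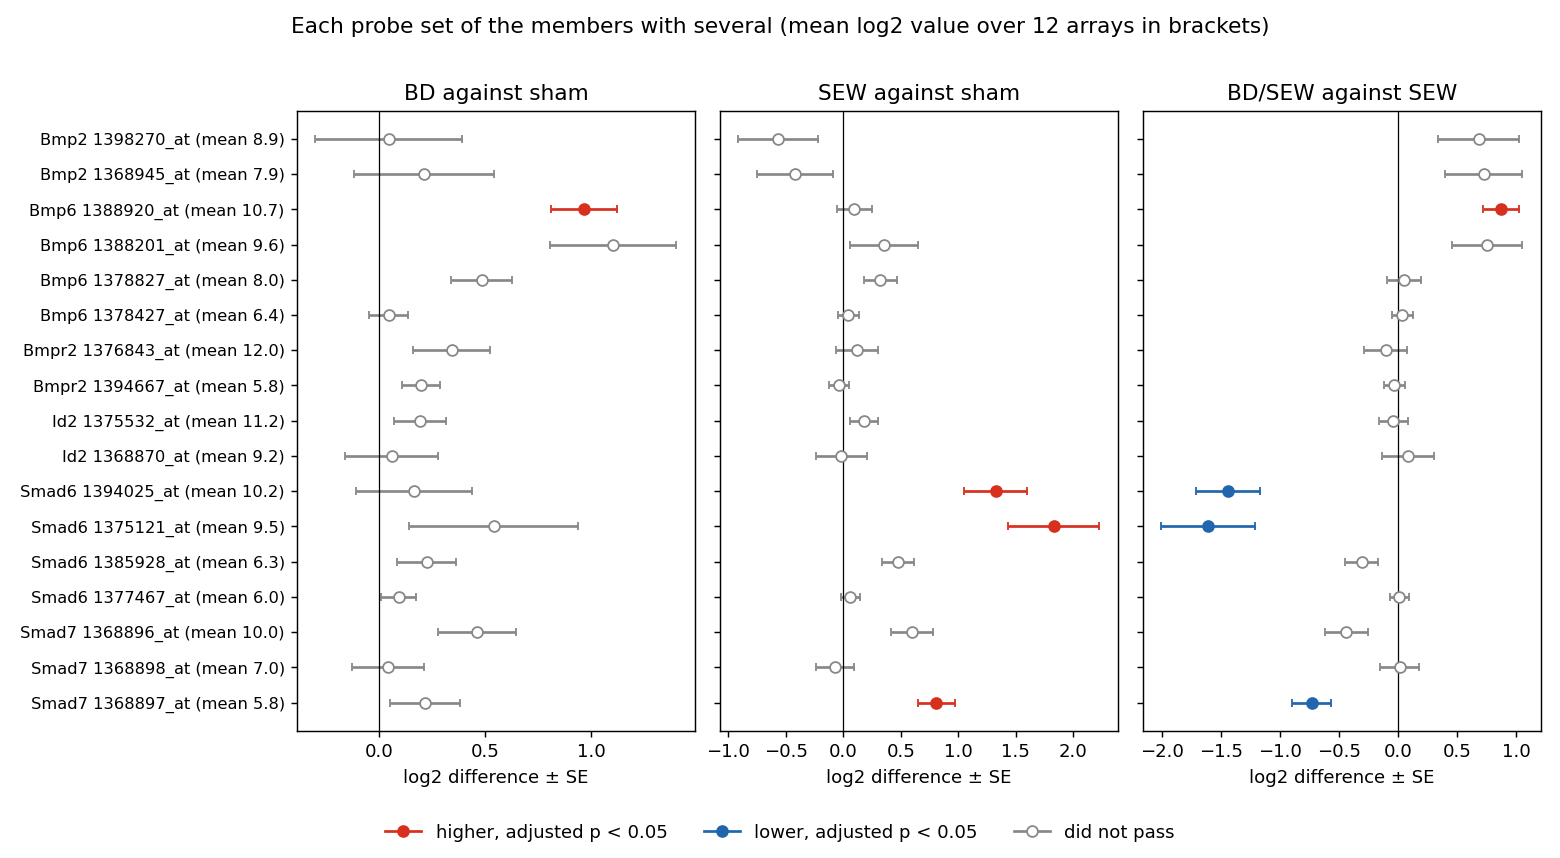
Log2 difference ± SE (horizontal axes, log2 units) of each probe set of the 6 members with several, in BD against sham, SEW against sham and BD/SEW against SEW, from a limma fit over all 31042 probe sets; filled points passed at an adjusted p under 0.05. The brightest Bmp6 probe set passes in 2 panels, while for Smad6 the 2 brightest and for Smad7 the dimmest pass in the SEW panels.

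The rest of the pathway was read from lists of its parts. Their counts, here and below, stand beside these shares of all genes. In SEW against sham 3.4% rose and 2.43% fell, and in BD/SEW against SEW 4.75% rose and 5.04% fell. In BD/SEW against sham 1.7% rose and 1.17% fell, and 0.95% passed in the interaction. In lists this short, 1 call in BD/SEW against SEW is not read as a result about the list. None of the 6 measured further BMP ligands of 11 listed, and none of the 8 measured further receptors and co-receptors of 9 listed, passed in any comparison. Among the co-receptors Eng, which encodes endoglin of endothelial cells, read 12.43, 11.83 and 12.19 in SEW and 11.68, 11.56 and 10.96 in sham, a difference of 0.75 ± 0.20 (limma adjusted p = 0.052). Of 17 measured antagonists and modulators, 1 passed. Fst, which encodes follistatin, a binder of activins and some BMPs, fell by 1.42 in BD/SEW against SEW (SE 0.28, adjusted p = 0.0088). Its arrays read 8.59, 8.32 and 7.86 in BD/SEW and 9.42, 10.46 and 9.15 in SEW.

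Of 12 measured SMADs and SMAD regulators, 1 rose and 1 fell in SEW against sham, 1 of each in BD/SEW against SEW, 1 rose in BD/SEW against sham and 1 passed in the interaction. Smad9, an effector of BMP receptors, rose by 1.00 ± 0.21 in SEW against sham (limma adjusted p = 0.025) and by 1.04 ± 0.21 in BD/SEW against sham (adjusted p = 0.030). Its sham arrays, at 8.22, 8.13 and 7.57, lay below the 9 arrays of the other groups, the lowest of which was 8.69. The call in BD/SEW against sham was lost in each fit that left out a compared array, and that in SEW against sham without sham replicate 3 or SEW replicate 2. With the mean of its probe sets, Smad9 was at 0.60 in SEW against sham (adjusted p = 0.025).

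Runx1, a transcription factor that partners SMADs, fell by 0.91 in SEW against sham (SE 0.14, limma adjusted p = 0.0064) and rose by 1.26 ± 0.14 in BD/SEW against SEW (adjusted p = 0.00031). Its arrays read 11.83, 11.64 and 11.53 in BD/SEW, 11.46, 11.27 and 11.51 in BD, 10.28, 10.37 and 10.58 in SEW and 11.10, 11.27 and 11.59 in sham. The 3 SEW arrays lay below the other 9. Smad5, another BMP effector, fell by 0.40 in BD/SEW against SEW (SE 0.10, adjusted p = 0.025), but with the mean of its probe sets it was at 0.08 (adjusted p = 0.69).

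Of 12 measured further BMP target genes, 2 rose in SEW against sham, 1 rose and 3 fell in BD/SEW against SEW, 1 fell in BD/SEW against sham and 1 passed in the interaction. Hey1, a repressor that BMP and Notch signals both induce in endothelium, read 8.79, 8.88 and 9.19 in BD/SEW, 10.07, 9.24 and 9.74 in BD, 11.15, 11.30 and 11.32 in SEW and 9.85, 9.72 and 8.56 in sham. Its interaction was -2.61 ± 0.43 (limma adjusted p = 0.018). Like Smad6, it stood above all other arrays in the 3 SEW arrays.

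Tmem100, an endothelial gene downstream of the type I receptor ALK1, fell by 1.81 in BD/SEW against SEW (SE 0.24, limma adjusted p = 0.00090) and by 1.13 in BD/SEW against sham (SE 0.24, adjusted p = 0.033). It read 11.72, 10.99 and 11.55 in BD/SEW, 12.16, 11.58 and 11.95 in BD, 13.18, 13.20 and 13.31 in SEW and 13.05, 12.49 and 12.10 in sham. The second of these calls held in 1 of the 6 fits that left out a compared array. Tbx2, a T-box transcription factor, rose by 0.76 ± 0.15 in SEW against sham (adjusted p = 0.019), a call lost without sham replicate 3.

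Other targets went the opposite way or were weaker. Msx1, a homeobox target, rose by 1.90 ± 0.27 in BD/SEW against SEW (limma adjusted p = 0.0015), with 9.40, 8.94 and 8.87 in BD/SEW and 7.04, 7.49 and 6.99 in SEW. Gata2, an endothelial and blood transcription factor, fell by 0.69 in the same comparison (SE 0.20, adjusted p = 0.048), a call lost in each fit that left out a compared array.

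In the TGF-beta and activin arm, a neighbouring pathway, 16 of 20 listed genes were measured. There 1 fell in SEW against sham, 2 rose in BD/SEW against SEW, 1 rose in BD/SEW against sham and 1 passed in the interaction. Inhba, which encodes the subunit of activin A, read 9.21, 9.05 and 9.14 in BD/SEW, 8.17, 7.49 and 8.10 in BD, 5.57, 6.20 and 5.93 in SEW and 7.07, 6.76 and 7.78 in sham. It rose by 3.23 ± 0.26 in BD/SEW against SEW (limma adjusted p = 4.6e-05) and by 1.93 ± 0.26 in BD/SEW against sham (adjusted p = 0.0035), and fell by 1.30 in SEW against sham (SE 0.26, adjusted p = 0.019), where the call was lost without SEW replicate 1. With the mean of its probe sets these 3 differences were smaller, at 1.79, 1.12 and -0.68, and passed (adjusted p at most 0.019). BD/SEW and BD did not overlap in it, a difference that did not pass. Skil, a repressor of SMAD signalling, rose by 0.49 ± 0.11 in BD/SEW against SEW (adjusted p = 0.013), a call lost without BD/SEW replicate 1 or BD/SEW replicate 2.

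Among 8 measured E proteins and other helix-loop-helix factors, 1 passed. Mxd1, which encodes a partner of MAX, rose by 1.65 ± 0.33 in BD/SEW against SEW (limma adjusted p = 0.0088). No gene of these lists passed in BD against sham or in BD/SEW against BD. With the cardiac or the adipose covariate, none of their 8 calls in comparisons with sham passed. Few of the calls over all genes, counted above with Bmp6, remained there either. Some of the 8 differences were larger with the cardiac and the adipose covariate than without, and the others were smaller. Runx1 in SEW against sham was at -1.07 and -1.19, and Inhba at -1.67 and -1.79. Tbx2 was at 0.81 and 0.87 there, and Tmem100 in BD/SEW against sham at -1.28 and -1.24. Hey1 in SEW against sham was smaller, at 1.69 and 1.67 beside 1.88 without a covariate. Inhba in BD/SEW against sham was at 1.59 and 1.42 beside 1.93. Smad9 was at 0.85 and 0.97 in SEW against sham, beside 1.00. In BD/SEW against sham Smad9 was at 0.90 and 1.00, beside 1.04. What part tissue content has in these differences was not tested.

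**Figure D5:**
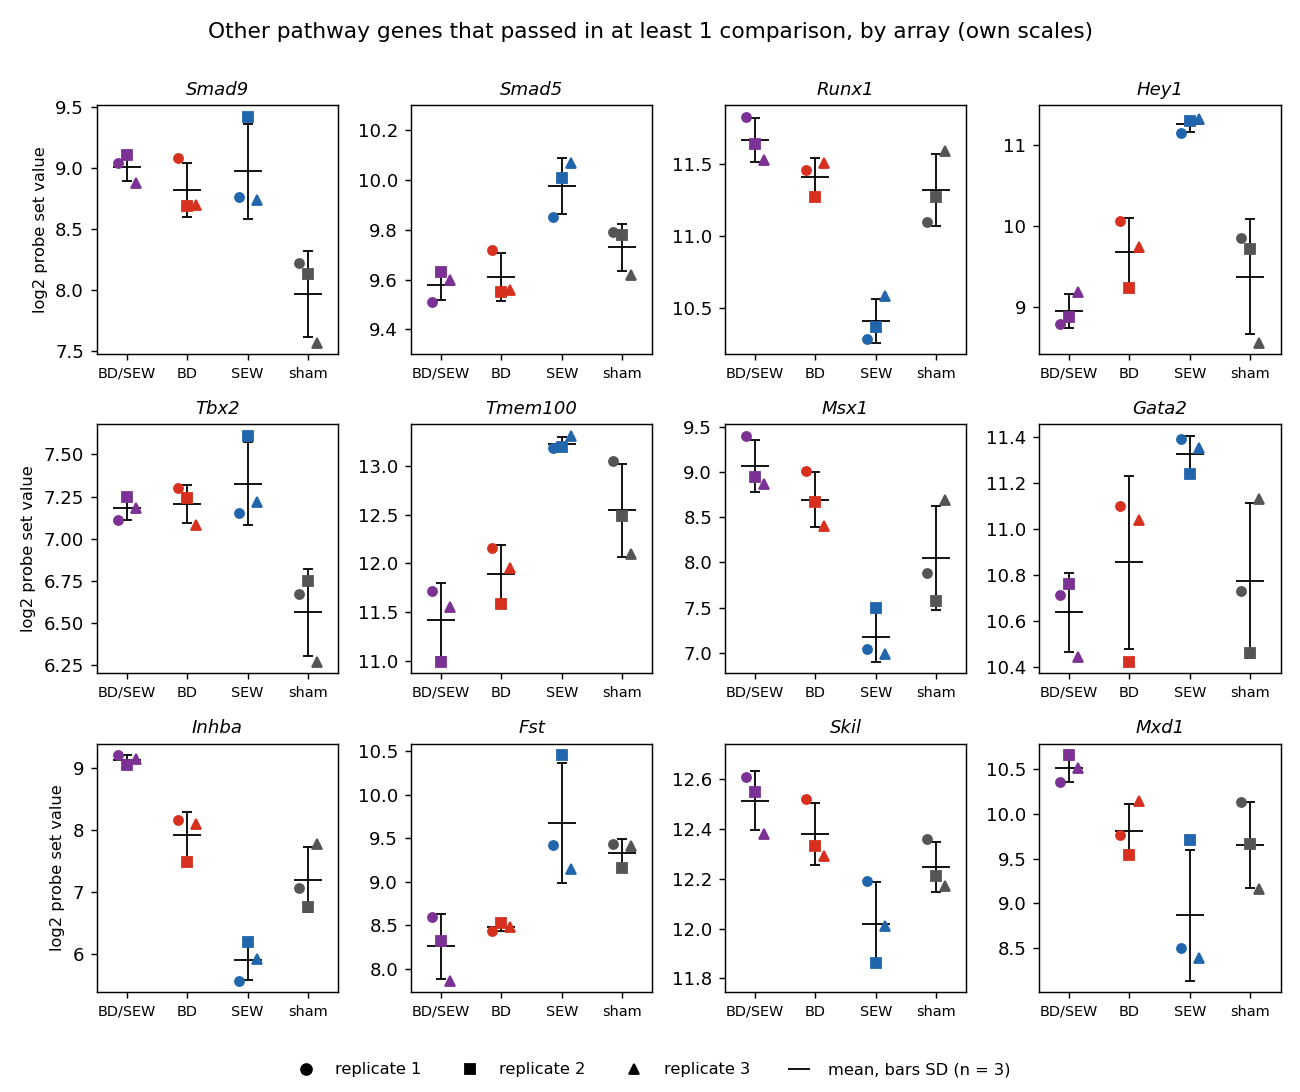
Log2 probe set value (vertical axes, 1 scale per panel) of the 12 listed pathway genes outside the members that passed in at least 1 comparison, in each array by group from BD/SEW to sham; horizontal lines are means and bars the SD (n = 3). Hey1 and Tmem100 are highest and Runx1, Msx1 and Inhba lowest in the SEW arrays.

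The members were also set beside each other and beside the other genes across the 12 arrays, as a description of arrays that share their groups. Among the members, Smad6 and Smad7 had a Pearson r of 0.79, Bmp4 and Id3 of 0.90, Bmp6 and Id1 of -0.81, and Id1 and Id3 of 0.29. Bmp4 and Id3 were both lowest in sham replicate 3 and both highest in SEW replicate 2, the arrays with the lowest weights. Among 10652 other genes with a mean above the 25th percentile, those most like Bmp6 were Icam5 (r = 0.95), Ripk2 (0.94) and Sav1 (0.93). Those most like Id1 were Asnsd1 (0.96), B4galt4 (0.95) and Actr1b (0.95). Foxf1, a transcription factor of lung mesenchyme and endothelium, was most like Smad6 (0.95), followed by Tox3 (0.93) and Tmem26 (0.92). For Id3 these were Cr1l (0.96), Hsd17b4 (0.96) and Ryk (0.95), and without the 2 arrays farthest from the Id3 median they came to 0.83, 0.85 and 0.71.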

How the data were processed

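Lung RNA of 12 samples was measured on Affymetrix rat arrays from 6 ug of total RNA each. As deposited by the authors, each value is a log2 intensity of a probe set, given to 2 decimals. Per the submitters' processing notes the tools were affy, RMA and MAS5, with no version or role stated. Raw arrays were not analysed here, and precision is limited by the number of arrays. Array medians were 7.34 to 7.41.

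The platform annotation gave 1 gene symbol to 20826 of 31042 probe sets, several to 436 and none to 9780, and 20758 matched the RefSeq table of assembly GRCr8, which also gave the promoter sequences. A gene was read from its probe set with the highest mean, which left 14217 genes.

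Genes were tested with limma 3.58.1 in R 4.3.3: 1 mean per group over all 12 arrays, variances moderated with a mean trend, two-sided, adjusted by Benjamini-Hochberg, called at an adjusted p under 0.05. The test was also run on simulated data with independent normal noise. These had no outlying arrays and no differences in tissue content, so that run cannot show how the calls fare under them. In 6 comparisons, alternatives changed the arrays, weights, probe set rule, filter, normalization, threshold and covariates. Named were all members, up to 6 called genes per pathway list and comparison, and the 3 genes most like each member that passed. The members and lists were chosen with earlier results of these data known. Same-numbered samples correlated with r between -0.19 and 0.38 in their deviations from the group means, with 8 of 18 pairs over 0.1. For 9 of the 12 arrays the best match in another group had the same number. The labels state no pairing, so the main fit took none, and a replicate block was an alternative.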

Additional observations from a re-analysis of the deposited data

Results flagged for a closer look

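In 3 pathway genes outside the 10 members, the effect of brain death differed with and without the agonist by limma's test of the interaction. Inhba, the activin A subunit, had an interaction of 2.52 ± 0.37 (adjusted p = 0.011). BD/SEW exceeded SEW by 3.23 in it, and it passed in each of the 12 fits that left out an array. With the mean of its probe sets the interaction was smaller, at 1.38 (adjusted p = 0.0098), and the difference between BD/SEW and SEW was 1.79. Hey1 had an interaction of -2.61 ± 0.43 (adjusted p = 0.018), with a passing difference of -2.30 in BD/SEW against SEW, and it passed in 9 of 12 such fits, the exceptions being those that left out BD replicate 1 and BD/SEW replicates 1 and 2. Runx1 had an interaction of 1.16 ± 0.19 (adjusted p = 0.020) and passed in 8 of 12, the exceptions being those 3 arrays and SEW replicate 1. With the cardiac covariate Hey1 was at -2.50 (limma adjusted p = 0.051) and with the adipose one at -2.46 (adjusted p = 0.083), so it passed with neither. Inhba and Runx1 passed with either covariate.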

How the results depend on the processing

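The 9 differences in which a member passed kept their direction in all 180 alternative values. Of 1070 alternative values for member differences that did not pass, 64 changed sign. In BD/SEW against SEW the count of 3 was 2 with the mean of all probe sets (Id1 and Smad6) and 3 in every other alternative except the replicate block, and in BD/SEW against BD it was 0 in all. In BD against sham the count of 2 was 1 with the compared arrays only (Id1), with the mean of all probe sets (Id1) and with sham replicate 3, SEW replicate 2 and BD replicate 2 all left out (Bmp6). It was 0 with the cardiac or adipose covariate and at the stricter threshold, an adjusted p under 0.01, as well. In SEW against sham the count of 2 was 1 with the compared arrays only (Smad6), 3 in 6 alternatives that added Bmp4 or Smad7, and 0 with either covariate and at the stricter threshold. In BD/SEW against sham the count of 2 was 1 at the stricter threshold (Bmp6), 3 with array weights (Bmpr1a added) and 0 with either covariate. In the interaction the count of 0 was 2 (Smad6 and Smad7) with array weights and without the same 3 arrays. Leaving out 1 array gave 0 to 2 members in BD against sham, SEW against sham and the interaction, and 0 to 2 in BD/SEW against sham, where both calls were lost without BD/SEW replicate 2. With the replicate number as a replicate block, the counts were 1 in BD against sham (Bmp6), 4 in SEW against sham (Bmp4, Id3, Smad6 and Smad7), 4 in BD/SEW against SEW (Smad7 added) and 2 in the interaction (Smad6 and Smad7). Of the 12 arrays, 9 correlated best with their own number, a hint from the data and not the design. Smad5 in BD/SEW against SEW turned to 0.08 with the mean of all probe sets. Over all genes, BD against sham had 30 higher and 54 lower calls, and 3 to 180 and 1 to 319 over the alternatives. The causes were not tested. Id3 in SEW against sham was 1.04 with array weights.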

Other observations

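A pair of genes downstream or beside BMP6 in iron handling was chosen for mention after its values were seen. Hamp, which encodes hepcidin, the iron-regulating hormone that BMP6 induces in liver, read 6.79, 6.95 and 8.30 in BD/SEW, 6.43, 11.75 and 7.68 in BD, 6.89, 6.85 and 7.67 in SEW and 10.84, 10.54 and 9.76 in sham. Hjv, which encodes the BMP co-receptor hemojuvelin of liver and striated muscle, read 4.22, 4.42 and 5.10 in BD/SEW, 4.47, 8.78 and 4.82 in BD, 4.37, 4.51 and 4.83 in SEW and 7.58, 7.19 and 6.99 in sham. Both were highest in BD replicate 2 and next highest in the sham arrays, the 4 arrays with the highest cardiac marker means. In limma neither passed any of the 6 tests, and the lowest adjusted p was 0.080, for Hjv in SEW against sham. Bmp6 itself was higher in all 3 BD arrays than in the sham arrays.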
